A study of Mus musculus with 6 samples.

Results

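The genes described here are 40 genes of sterol synthesis, of its control by the SREBP transcription factors and of cholesterol efflux, examined in glomerular endothelial cells (GEC) of diabetic and normal mice. They were chosen as a named list, by a rule that uses no measured values although earlier results of these data were known. Of the 40 genes 38 had a probeset that the array annotation gives to that gene alone, and 37 of these, among 12763 genes in all, reached a linear signal of 100 or higher in 3 of the 6 arrays or more. Cyp7b1 stayed under that level in every array, and Nr1h2 and Soat1 had no probeset under their symbol alone in the annotation used here. The diabetic animals were db/db mice (genotype Tie2-GFP/ DB/DB), in which the leptin receptor is not functional and obesity and diabetes follow, and the normal animals carried the same transgene (genotype Tie2-GFP/ +/+). All were 7 months old. Green fluorescent protein is driven in the transgene by the Tie2 promoter, which is active in endothelium and also in some blood-forming cells. Fluorescent cells of sieved glomeruli were sorted, and the RNA was amplified and hybridised to Affymetrix Mouse Gene ST arrays, with 3 db/db and 3 normal arrays labelled as biological replicates. How many mice went into a sample is not given in the sources used here.

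Cells make cholesterol from acetyl-CoA through mevalonate, squalene and lanosterol, or take it up with lipoproteins. When the membrane of the endoplasmic reticulum is short of sterol, SCAP escorts the SREBP proteins to the Golgi, where they are cut to become transcription factors for the genes of sterol and fatty acid synthesis, and when sterol is plentiful the INSIG proteins hold SCAP and SREBP back. Hydroxylated forms of cholesterol, the oxysterols, bind INSIG and also activate the LXR nuclear receptors, whose targets export cholesterol to lipoproteins.

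All levels below are log2 probeset signals, all changes are db/db minus normal on the log2 scale with limma's moderated standard error (SE), and errors beside means are SD over 3 arrays per group. Array medians lay between 7.00 and 7.04, so the arrays were on a common scale. Precision is limited by having 3 arrays per group. Over the probesets kept, pairs of arrays correlated with r between 0.924 and 0.953. The array farthest from the others was normal replicate 2, on a first principal component with 30.5% of the variance. All 9 endothelial markers reached the level filter, with a summed linear signal of 56300 to 58400 in db/db arrays and 55100 to 56700 in normal arrays, and at an unadjusted limma p under 0.05 Cdh5 was higher in db/db (log2 change 0.21 ± 0.08 SE, adjusted p = 0.754) and Tek was lower (-0.33 ± 0.12 SE, adjusted p = 0.754). Tek encodes Tie2, whose promoter drives the marker used for sorting. The 4 glomerular endothelial markers summed to 14600 to 16300 in db/db arrays and 16200 to 18600 in normal arrays, and 2 of them were lower in db/db at an unadjusted limma p under 0.05. Podocyte markers summed to 789 to 878 in db/db and 864 to 999 in normal arrays. At that threshold 1 of them, Cdkn1c, was lower in db/db (log2 change -0.40). Nphs1 (0.06), Synpo (0.24) and Wt1 (0.08) had positive changes. Mesangial markers summed to 805 to 858 in db/db and 574 to 854 in normal arrays. Of the 5 with a probeset only Meis1 passed the level filter, and its lowest value was 7.94 in normal replicate 2. Tubule markers summed to 1520 to 1760 in db/db and 1740 to 1770 in normal arrays. Of the tubule markers Aqp1 had a change of -0.20, while Slc34a1 (0.03), Slc5a2 (0.10), Slc22a6 (0.16) and Umod (0.31) had positive changes. Slc22a6 and Umod reached the filter level in 3 db/db arrays and 0 normal arrays, so the filter favoured their sign. Lrp2 and Cubn were under the level and were not tested. Platelet markers summed to 563 to 919 in db/db and 808 to 1170 in normal arrays. The 2 red cell markers with a probeset of their own summed to 270 to 300 in db/db arrays and 284 to 309 in normal arrays, whereas the 2 probesets that the annotation gives to both alpha-globin genes averaged 9.42 ± 0.66 in db/db and 11.48 ± 0.20 in normal arrays.

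Db/db GEC carried more signal for Ch25h, which makes an oxysterol, and somewhat less for Insig1 and Scd1, while the enzymes that build cholesterol had a median change of -0.13 and overlapping groups in all but Mvd. No member passed the test after Benjamini-Hochberg adjustment in limma, and neither did any of the 20661 probesets of the series (0%), where the smallest adjusted p was 0.203 and 1320 probesets had an unadjusted p under 0.05. At an unadjusted p under 0.05 there was 1 member higher in db/db (Ch25h), against 3.49% of all genes, and there were 3 lower (Insig1, Scd1 and Cyp27a1), against 3.07% of all genes. The 3 db/db arrays lay wholly above the 3 normal arrays for 4 members (Ch25h, Npc2, Mvd and Scap), where 7.39% of all genes did so, and wholly below them for 3 members (Insig1, Scd1 and Cyp27a1), where 5.92% did so. Of the 37 measured members 23 had a mean below normal, against 46.3% of all genes. Their median change was -0.10, beside 0.01 over all genes, and 34 of the 37 had a change under 0.5 in size, as had 95.1% of all genes. Less signal for a gene in sorted cells can come from fewer cells of a kind or from less RNA per cell, and these arrays cannot tell the 2 apart.

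**Figure D1:**
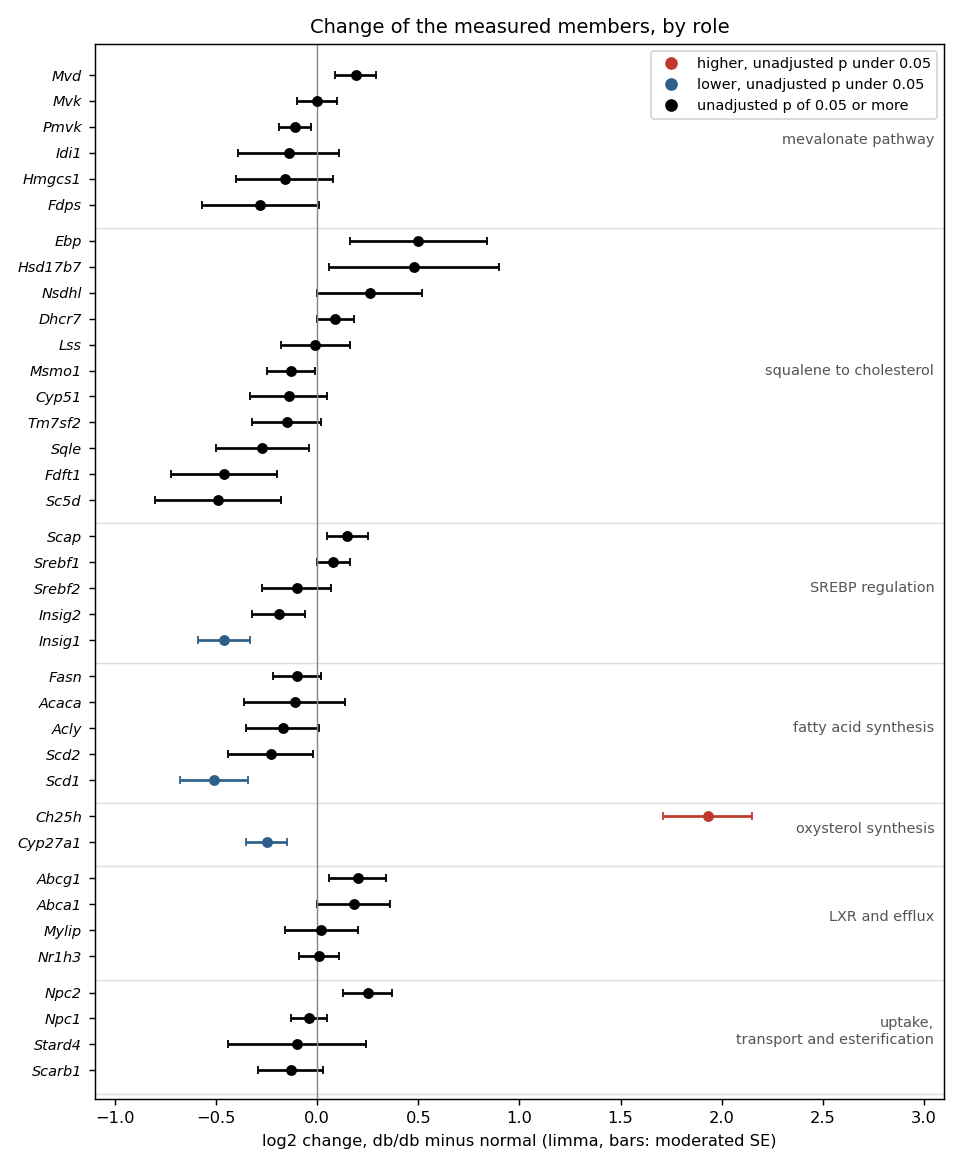
Log2 change of the 37 measured members, db/db minus normal, as points with limma's moderated SE as bars, grouped by role and ordered by size within a role. Ch25h stands alone at 1.93, and the other members lie between -0.51 and 0.50.

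**Figure D2:**
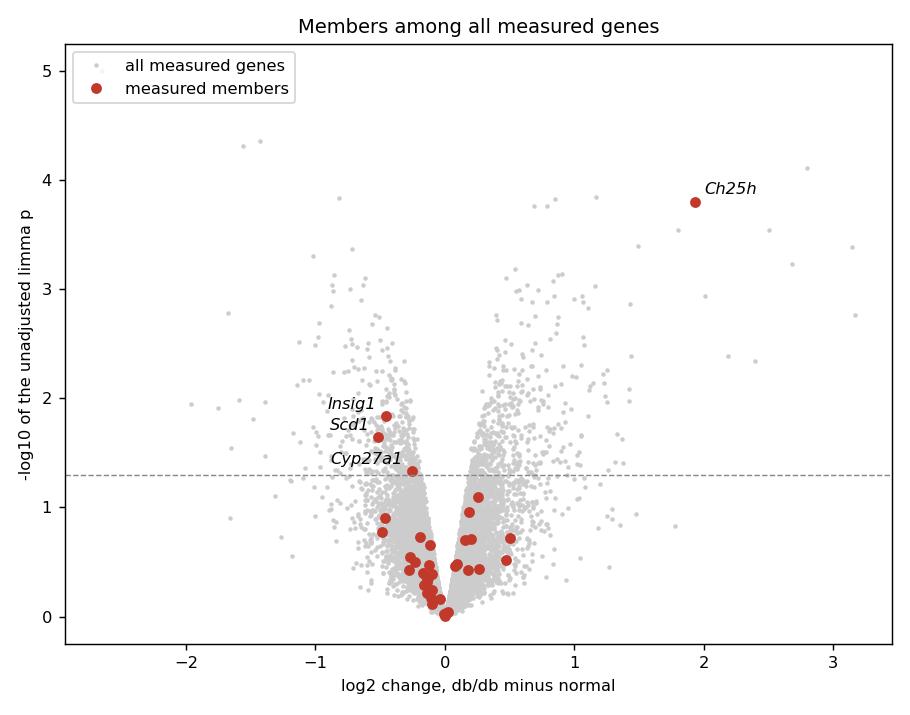
Log2 change (horizontal axis, db/db minus normal) against -log10 of the unadjusted limma p (vertical axis) for 12763 genes in grey and the 37 measured members in red (the dashed line marks the unadjusted threshold of 0.05). Ch25h ranks 8th by p, and only Insig1, Scd1 and Cyp27a1 of the other members lie above the line.

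Ch25h, the cholesterol hydroxylase that makes the oxysterol released by activated macrophages and other immune cells, read 9.64, 9.39 and 9.32 in db/db arrays, against 7.06, 7.67 and 7.81 in normal arrays. The lowest db/db array lay well above the highest normal array. The means were 9.45 ± 0.17 in db/db and 7.51 ± 0.40 in normal GEC, a 3.82-fold difference (log2 change 1.93 ± 0.22 SE, limma, adjusted p = 0.256). Among the 12763 genes this was the 9th largest positive change and the 8th smallest p. The change lay between 1.71 and 2.08 when any 1 array was left out, and the adjusted p lay between 0.128 and 0.637 over all alternatives, so the call was not reached under any of them.

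Because macrophages are a known source of Ch25h, their markers were read beside it. Of 12 macrophage markers 8 did not pass the level filter (Ptprc, Csf1r, Lyz2, Adgre1, Fcer1g, Itgam, C1qb and Mrc1). Of these Lyz2 reached the level in 2 db/db arrays, Fcer1g and C1qb in 1 each, and none in a normal array. At this low signal C1qb and Mrc1 were higher in db/db without overlap, and the others overlapped. The summed signal of all 12 was 1400 to 2670 in db/db arrays and 1590 to 2220 in normal arrays, ranges that overlap. The sum leans on a few markers of high signal, such as Tyrobp (10.04 in diabetic replicate 1) and Cd14 (9.97 in normal replicate 2). Cd68, a lysosomal protein of macrophages, was the 1 marker of the list with an unadjusted p under 0.05. It read 7.95, 7.59 and 6.91 in db/db arrays and 6.63, 6.72 and 6.81 in normal arrays (log2 change 0.76 ± 0.27 SE, limma, adjusted p = 0.752), with no overlap. Cd14, also on the list, went the other way with a change of -0.71, again with no overlap. It read 8.30, 8.38 and 8.31 in db/db arrays and 8.70, 9.97 and 8.43 in normal arrays. Outside the list, 2 macrophage genes chosen after their values were seen had an unadjusted p under 0.05, Aif1 with a change of 1.05 and C3ar1 with 1.37. Because they were picked by value, their p is no test, and they do not stand for other macrophage genes. Within the db/db arrays and within the normal arrays, the order of the Cd68 values was also that of the Ch25h values. Tyrobp (change -0.06), C1qa (0.44) and Cd14, the other measured markers of the list, did not share the Ch25h order in either group. The normal Cd68 values lay close to the level filter, which Cd68 reached in 2 normal arrays, so their order there carries little weight. An order over 3 arrays per group is no test, and Cd68 was singled out by its p. Diabetic replicate 1 was the highest array for Cd68, Tyrobp and C1qa but not for Cd14. The part of macrophages in the Ch25h result was not tested. Lipa, the lysosomal lipase that frees cholesterol from its esters and lies beside Ch25h on chromosome 19, had a change of 0.08 ± 0.10 SE (limma, adjusted p = 0.913).

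Cyp27a1, the mitochondrial enzyme that makes another oxysterol, was lower in db/db GEC on average. It read 6.98, 7.12 and 7.08 in db/db arrays, against 7.46, 7.25 and 7.22 in normal arrays, all near the level filter of 6.64. The groups did not overlap, with a log2 change of -0.25 ± 0.10 SE (limma, adjusted p = 0.774). Its unadjusted p stayed under 0.05 in 12 of 18 alternatives, and without normal replicate 1, where it did not, the change was -0.18. Cyp7b1, which hydroxylates oxysterols further, was under the level filter with 6.0, 5.41 and 5.31 in db/db arrays and 5.30, 5.35 and 5.07 in normal arrays, and was not tested.

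Promoter windows from RefSeq (build GRCm38.p6, 250 bases before to 50 after an annotated start) were at hand for 30 of the 40 members, and 4 are shown. Ch25h, Insig1 and Cyp27a1 are shown because they had an unadjusted p under 0.05, and no window was at hand for Scd1. Hmgcs1 is shown as the 1 member whose window held the core of a sterol regulatory element, the site that SREBP binds. Capitals mark matches, on either strand, to that core (TCACNCCAC), to the CCAAT box (CCAAT, read as ATTGG on the other strand) and to the GC box (GGGCGG, read as CCGCCC on the other strand), and no matches to different motifs overlapped. Ch25h lies at chr19:34475099-34475398 on the minus strand, Insig1 at chr5:28071162-28071461, Cyp27a1 at chr1:74713285-74713584 and Hmgcs1 at chr13:119690101-119690400, these 3 on the plus strand.
Ch25h: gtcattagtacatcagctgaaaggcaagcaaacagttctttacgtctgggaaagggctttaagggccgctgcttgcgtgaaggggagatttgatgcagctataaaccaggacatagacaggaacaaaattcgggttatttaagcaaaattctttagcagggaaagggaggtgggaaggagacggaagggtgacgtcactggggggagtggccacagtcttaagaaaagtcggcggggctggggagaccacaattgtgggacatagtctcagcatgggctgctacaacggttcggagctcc
Insig1: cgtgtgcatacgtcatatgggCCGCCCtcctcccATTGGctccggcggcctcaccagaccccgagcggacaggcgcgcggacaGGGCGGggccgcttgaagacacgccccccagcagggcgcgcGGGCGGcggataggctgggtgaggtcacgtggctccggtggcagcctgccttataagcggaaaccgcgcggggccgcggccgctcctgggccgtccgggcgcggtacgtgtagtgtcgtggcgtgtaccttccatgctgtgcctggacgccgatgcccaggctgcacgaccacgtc
Cyp27a1: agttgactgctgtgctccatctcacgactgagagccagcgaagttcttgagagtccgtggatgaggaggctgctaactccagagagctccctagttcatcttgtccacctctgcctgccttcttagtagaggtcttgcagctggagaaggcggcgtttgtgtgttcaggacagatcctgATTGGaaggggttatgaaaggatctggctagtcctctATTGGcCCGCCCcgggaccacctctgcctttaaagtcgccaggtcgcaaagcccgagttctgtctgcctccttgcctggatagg
Hmgcs1: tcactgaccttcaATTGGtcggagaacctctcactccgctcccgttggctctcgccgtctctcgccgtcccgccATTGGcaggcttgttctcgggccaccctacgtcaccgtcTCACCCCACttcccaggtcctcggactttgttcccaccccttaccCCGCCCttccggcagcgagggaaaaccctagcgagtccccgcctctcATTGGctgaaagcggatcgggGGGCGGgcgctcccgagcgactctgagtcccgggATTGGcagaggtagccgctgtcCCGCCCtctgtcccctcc
The Ch25h window held none of the 3 motifs. Insig1 held 1 CCAAT box and 3 GC boxes, Cyp27a1 held 2 CCAAT boxes and 1 GC box, and Hmgcs1 held 4 CCAAT boxes, 3 GC boxes and the sterol element core, which starts at position -137. Counting a gene if any of its windows held the motif, the core was in 1 of 30 members (3.33%), against 1.37% of the 10183 measured genes with a window. A CCAAT box was in all 14 sterol synthesis genes with a window and in 24 of the 30 members (80%), against 41.7% of measured genes, and a GC box was in 13 of those 14 (92.9%) and in 24 of the 30 (80%), against 66% of measured genes. A match is a string of letters and no measure of binding, and a window without one says nothing of the factor.

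**Figure D3:**
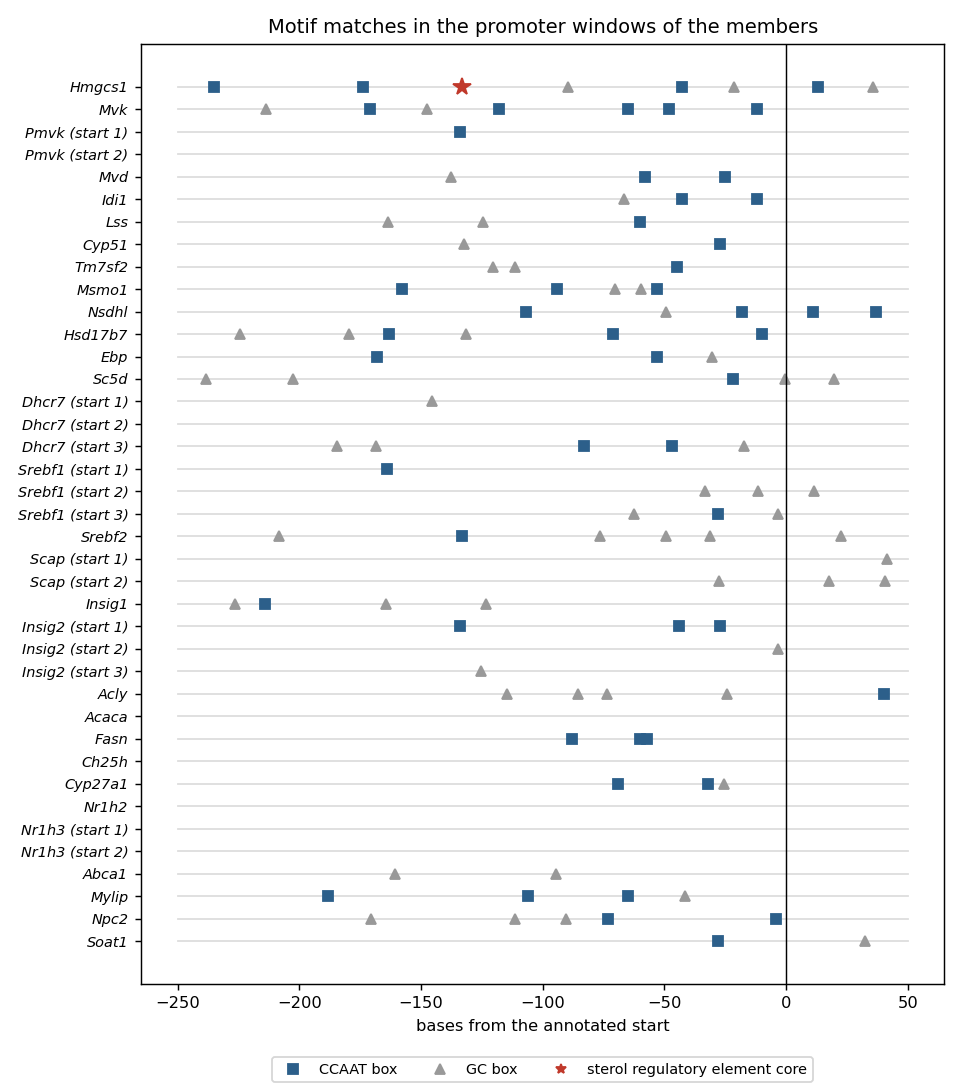
Matches to the 3 motifs in the promoter windows of the 30 members that have one, with 1 line per annotated start and the horizontal axis in bases from that start. CCAAT boxes (blue squares) appear in all 14 sterol synthesis genes, the sterol regulatory element core (red star) in Hmgcs1 alone, and no match lies in the Ch25h window.

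Among the regulators, Insig1, which retains SCAP and SREBP in the endoplasmic reticulum and is itself an SREBP target, was lower in db/db GEC. It read 8.83, 8.64 and 8.79 in db/db arrays, against 9.25, 8.98 and 9.40 in normal arrays, without overlap. The difference was 1.37-fold (log2 change -0.46 ± 0.13 SE, limma, adjusted p = 0.677). Over the alternatives the change lay between -0.57 and -0.36, and the unadjusted p stayed under 0.05 in all 19 of them. Its relative Insig2 read 10.21, 10.30 and 10.13 in db/db arrays and 10.64, 10.25 and 10.32 in normal arrays, where the groups overlap (log2 change -0.19 ± 0.13 SE, limma, adjusted p = 0.861).

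Scap, the escort protein, read 8.92, 8.87 and 8.90 in db/db arrays, against 8.87, 8.80 and 8.56 in normal arrays. These groups parted by less than the rounding of the values, with a log2 change of 0.15 ± 0.10 SE (limma, adjusted p = 0.865). The changes of the transcription factor genes themselves were about as large as their errors or smaller, at 0.08 ± 0.08 SE for Srebf1 and -0.10 ± 0.17 SE for Srebf2. The median change of the 5 regulators was -0.10.

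The 17 measured enzymes of sterol synthesis showed no shift beyond the spread between arrays. Averaged over the 17 genes the level was 8.01, 8.22 and 8.16 in db/db arrays, against 8.17, 8.12 and 8.25 in normal arrays, so the groups overlap. Their median change was -0.13, with 6 genes above 0 and 11 below, and none had an unadjusted p under 0.05. The highest of the 6 arrays was normal replicate 3 for 6 of the 17 genes, and the lowest was diabetic replicate 1, also for 6 genes.

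In the mevalonate branch Mvd, the decarboxylase that makes the first isoprene unit, was the 1 enzyme without overlap. It read 7.14, 7.20 and 7.38 in db/db arrays, against 7.07, 6.96 and 7.11 in normal arrays (log2 change 0.19 ± 0.10 SE, limma, adjusted p = 0.827). Pmvk, the phosphomevalonate kinase before it, read 7.48, 7.46 and 7.50 in db/db arrays and 7.50, 7.61 and 7.68 in normal arrays (log2 change -0.11 ± 0.08 SE, limma, adjusted p = 0.873). Hmgcs1, which makes HMG-CoA and carries the sterol element core shown above, read 9.54, 9.79 and 9.23 in db/db arrays and 9.26, 9.97 and 9.81 in normal arrays. Its groups overlap in part, with a change of -0.16 ± 0.24 SE (limma, adjusted p = 0.94). The remaining changes were 0.00 ± 0.10 SE for mevalonate kinase (Mvk), -0.14 ± 0.25 SE for the isomerase Idi1 and -0.28 ± 0.29 SE for farnesyl pyrophosphate synthase (Fdps). Leaving out 1 array moved the change of Fdps between -0.51 and -0.04 and that of Hmgcs1 between -0.37 and -0.02, with the outer value without normal replicate 1 for both genes. Idi1 had another probeset, with -0.05 ± 0.37 SE, and this one is numbered among probesets of its own chromosome 13, whereas the probeset of higher signal is numbered among those of chromosome 2.

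From squalene on, Fdft1, the squalene synthase that commits carbon to sterols, read 10.11, 9.98 and 9.88 in db/db arrays, against 10.06, 10.29 and 11.01 in normal arrays. The highest value was that of normal replicate 3, and the groups overlap (log2 change -0.46 ± 0.26 SE, limma, adjusted p = 0.838). The other probeset of Fdft1 gave the same change of -0.46 ± 0.24 SE, again with its highest value in normal replicate 3. Without that array the change of Fdft1 was -0.18. Sc5d, a sterol desaturase late in the path, read 7.53, 8.54 and 8.55 in db/db arrays and 8.82, 8.47 and 8.79 in normal arrays, so that most of its change (-0.49 ± 0.31 SE, limma, adjusted p = 0.847) lay in diabetic replicate 1. Without that array it was -0.15.

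The largest change in the other direction was that of Ebp, a sterol isomerase, at 0.50 ± 0.34 SE (limma, adjusted p = 0.864), followed by the sterol reductase Hsd17b7 at 0.48 ± 0.42 SE. Both had wide spread among normal arrays, with SD of 0.65 for Ebp and 0.69 for Hsd17b7. Without normal replicate 2 the change of Ebp was 0.86 and that of Hsd17b7 was 0.09, so the same array pulled them opposite ways. The other changes were 0.26 for Nsdhl and 0.09 for Dhcr7, which are a demethylating dehydrogenase and the reductase of the last step, and -0.27 for squalene epoxidase (Sqle), -0.15 for the reductase Tm7sf2, -0.14 for the lanosterol demethylase Cyp51, -0.13 for the methyl sterol oxidase Msmo1 and -0.01 for lanosterol synthase (Lss), all with an adjusted limma p of at least 0.886. The change of Sqle was -0.02 without normal replicate 3, and that of Nsdhl was 0.03 without diabetic replicate 3.

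**Figure D4:**
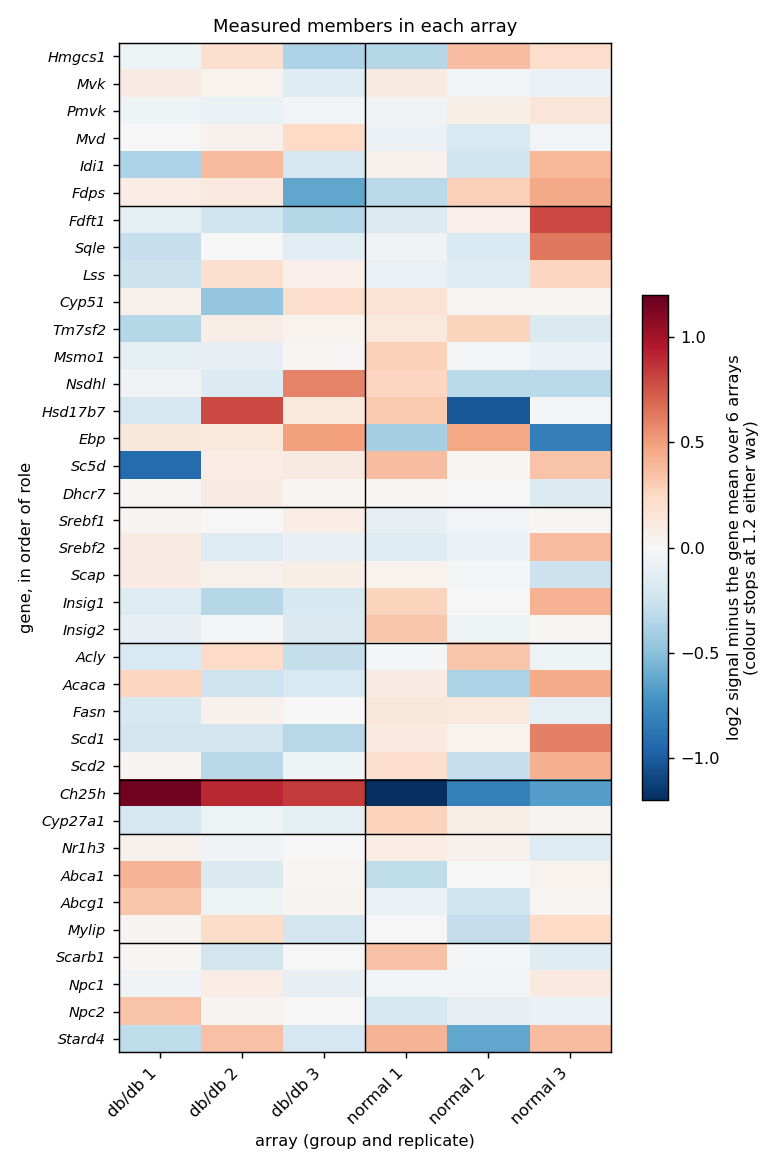
Log2 signal of each measured member in each array minus its mean over the 6 arrays, with db/db arrays on the left, normal arrays on the right and roles split by black lines. Ch25h is above its mean in the 3 db/db arrays and below it in the 3 normal arrays, while the sterol enzymes vary as much within as between groups.

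The 5 measured genes of fatty acid synthesis, which SREBP also drives, all had a mean below normal, although Acaca turned to 0.09 above it without normal replicate 3. Averaged over the 5, the level was 8.47, 8.43 and 8.36 in db/db arrays, against 8.64, 8.50 and 8.79 in normal arrays. Scd1, a desaturase that makes monounsaturated fatty acids, read 8.86, 8.86 and 8.74 in db/db arrays, against 9.20, 9.12 and 9.68 in normal arrays, without overlap. The difference was 1.43-fold (log2 change -0.51 ± 0.17 SE, limma, adjusted p = 0.704). It was -0.34 without normal replicate 3, and without diabetic replicate 3 it was -0.47 with an unadjusted p that was no longer under 0.05.

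The related desaturase Scd2 read 8.83, 8.47 and 8.75 in db/db arrays and 9.0, 8.52 and 9.23 in normal arrays, which overlap (log2 change -0.23 ± 0.21 SE, limma, adjusted p = 0.898). The 2 genes are close copies, and how far their probesets read one another was not tested. Acly, which makes acetyl-CoA in the cytosol, read 8.90, 9.32 and 8.80 in db/db arrays and 9.06, 9.42 and 9.03 in normal arrays (log2 change -0.17 ± 0.18 SE, limma, adjusted p = 0.911). Fatty acid synthase (Fasn) had a change of -0.10 ± 0.12 SE. Acetyl-CoA carboxylase (Acaca) had -0.11 ± 0.25 SE, from a probeset numbered among those of chromosome 12 although the gene is on chromosome 11, and its probeset on chromosome 11 was under the level filter.

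The 4 measured genes of the LXR arm had a median change of 0.10, which was 0.01 without diabetic replicate 1 and 0.19 without normal replicate 3. Abcg1, which loads cholesterol on mature HDL, read 9.64, 9.25 and 9.34 in db/db arrays, against 9.23, 9.07 and 9.33 in normal arrays. The groups overlap, with a log2 change of 0.20 ± 0.14 SE (limma, adjusted p = 0.864). Abca1, which exports cholesterol to lipid-poor apolipoprotein, read 8.38, 7.80 and 8.0 in db/db arrays and 7.67, 7.97 and 8.01 in normal arrays, with a change of 0.18 ± 0.18 SE (limma, adjusted p = 0.907). Diabetic replicate 1 was the highest array for both transporters, and without it the changes were 0.08 for Abcg1 and 0.02 for Abca1. Mylip, a ubiquitin ligase that removes lipoprotein receptors, read 10.15, 10.34 and 9.89 in db/db arrays and 10.13, 9.84 and 10.36 in normal arrays (log2 change 0.02 ± 0.18 SE), and the receptor gene Nr1h3 (LXR alpha) changed by 0.01 ± 0.10 SE. The sign turned with array weights for both, and for Nr1h3 also under other scalings, so neither has a direction.

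Of the genes that bring cholesterol in and move it, Npc2, which takes cholesterol out of lipoproteins in the lysosome, had the largest positive change. It read 10.56, 10.25 and 10.23 in db/db arrays, against 10.01, 10.12 and 10.15 in normal arrays, without overlap (log2 change 0.25 ± 0.12 SE, limma, adjusted p = 0.814). Its membrane partner Npc1 had a change of -0.04 ± 0.09 SE. Scarb1, the HDL receptor, read 8.65, 8.42 and 8.64 in db/db arrays and 8.98, 8.62 and 8.49 in normal arrays (log2 change -0.13 ± 0.16 SE, limma, adjusted p = 0.921), and the sterol carrier Stard4 had a change of -0.10 ± 0.34 SE.

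**Figure D5:**
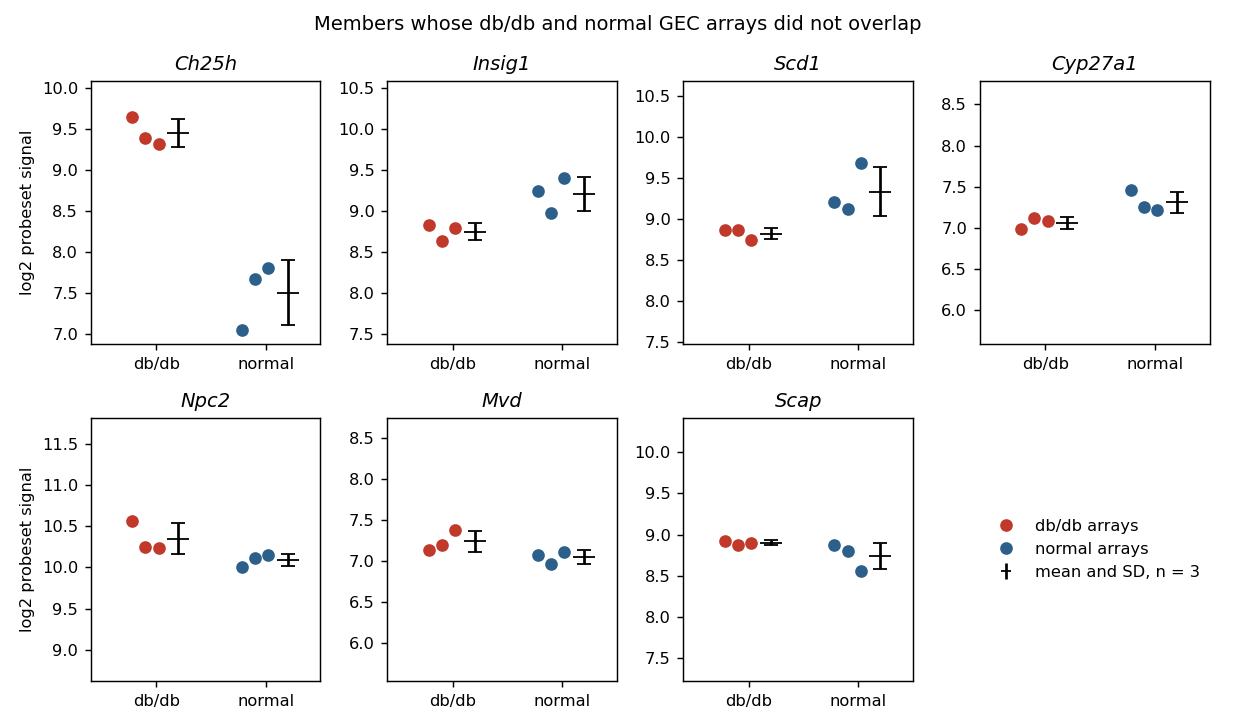
Log2 probeset signal in each of the 3 db/db arrays (red) and the 3 normal arrays (blue) for the 7 members whose groups do not overlap, with mean and SD as black bars and axes of equal length in every panel. The gap is 1.93 between means for Ch25h, and between 0.15 and 0.51 in size for the others.

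A further 43 genes of the same pathways were read as context, of which 31 were measured. None passed the adjusted test. At an unadjusted p under 0.05 there were 0 higher and 3 lower in db/db, where all genes gave 3.49% higher and 3.07% lower. The db/db arrays lay wholly above the normal arrays for 3 of the 31 genes and wholly below for 2, against 7.39% and 5.92% of all genes, and the median change was -0.01. Elovl5, which lengthens polyunsaturated fatty acids, read 11.03, 11.27 and 11.06 in db/db arrays, against 11.55, 11.34 and 11.55 in normal arrays, without overlap (log2 change -0.36 ± 0.11 SE, limma, adjusted p = 0.684). Mbtps1, the Golgi protease that makes the first cut in SREBP, had a change of -0.30 ± 0.11 SE (limma, adjusted p = 0.764). Tmem97, a sterol-responsive membrane protein, had -0.79 ± 0.26 SE (limma, adjusted p = 0.717), but its probeset is numbered among those of chromosome 16 while the gene is on chromosome 11, and its other probeset was under the level filter. Apoe, an LXR target that carries cholesterol out of cells, had 0.23 ± 0.12 SE (limma, adjusted p = 0.825).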

How the data were processed

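RNA of sorted Tie2-GFP positive GEC was amplified with a Nugen kit and measured on 1 array per sample. The deposited values are log2 probeset signal. RMA in GeneSpring is the normalisation named in the paper, while MAS5 is the only tool in the submitters' processing notes. Values ran from 3.18 to 14.46, and sorted values differed between arrays by at most 0.114. The deposited arrays thus had nearly the same distribution of values, not only the same total signal. A change can be read only against the rest of its array. The table held 35557 probesets, 21789 with 1 gene symbol, 1621 with more than 1 and 12147 without any. The filter was a linear signal of 100 or higher in 3 arrays or more, and 20661 probesets passed it. A gene was given by its single-symbol probeset with the highest mean.

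Groups came from the labels. They were compared with limma 3.58.1 in R 4.3.3 (lmFit, eBayes, two-sided, no block), and p-values were adjusted (Benjamini-Hochberg) over the 20661 probesets, with calls at 0.05. With 3 arrays a side the smallest two-sided p of an exact permutation test is 0.1, so none was used. Same-numbered arrays deviated from their group means with a correlation of -0.0296 to 0.0353, where other pairs gave -0.0468 to 0.0591. No strong effect shared by number was visible, so no pairing was used. Whether same-numbered samples were handled together cannot be told from these values.

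The members and lists were chosen with earlier results of these data known. Every measured member was named, with values per array for the 2 smallest p and the highest mean in each role and for groups without overlap, and 4 other pathway genes by smallest p. The order of probeset numbers was used to place probesets on chromosomes, and limiting genes to probesets on their own chromosome was chosen after seeing the data. Alternatives were leaving out each array, other choices of probeset, array weights, a replicate block, the methods' t-test, an intensity trend (also with a robust prior), a level of 200 or none, median centring and quantile normalisation. The fit was tested on simulated data. Motifs were searched on both strands with Python 3.11.15, and figures were drawn with matplotlib 3.10.9.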

Additional observations from a re-analysis of the deposited data

How the results depend on the processing

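No member passed the adjusted test under any alternative run. At an unadjusted p under 0.05 Ch25h and Insig1 remained in all 19 alternatives and Scd1 in 18, the exception being without diabetic replicate 3. Cyp27a1 was lost with the replicate block, without normal replicates 1 and 2 and without each diabetic replicate, and it fell under the filter at a level of 200. Fdft1 came in only without normal replicate 1, and Ebp and Scd2 only without normal replicate 2. The replicate block changed no other call among the members. A call over all genes appeared only with 1 probeset per gene and with single-symbol probesets alone, in each case for 1 gene that is no member.

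Counts of other pathway genes lower at an unadjusted p under 0.05 were 1 with the replicate block and 1 by the methods' t-test, against 3, and 1 such gene was higher with array weights, against 0. The oxysterol median was 1.93 at a level of 200, where Ch25h alone was left, against 0.84 over Ch25h and Cyp27a1. Mvk turned to -0.01 with quantile normalisation, -0.02 with median centring and -0.05 with array weights, Lss to 0.01 and Mylip to -0.03 with array weights, and Nr1h3 to -0.01 with each of these 3 settings. The cause was not tested.

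Leaving out 1 array at a time gave 1 to 2 members higher, 1 to 3 lower and a member median of -0.09 to -0.02. It gave 0 to 1 other pathway genes higher and 0 to 2 lower, 0 without normal replicate 3. Medians by role ran from -0.20 to -0.03 for the mevalonate pathway and from -0.16 to -0.01 for squalene to cholesterol. They ran from -0.17 to 0.06 for SREBP regulation and from -0.32 to -0.12 for fatty acid synthesis. For LXR and efflux they ran from 0.01 to 0.19, and for uptake and transport from -0.11 to 0.04. For oxysterol synthesis the range was 0.76 to 0.89, the midpoint of 2 genes with opposite changes, Ch25h (1.93) and Cyp27a1 (-0.25). Signs turned for Mvk (-0.05 to 0.08), Idi1 (-0.36 to 0.03), Lss (-0.11 to 0.12), Cyp51 (-0.28 to 0.06), Srebf2 (-0.20 to 0.06), Acaca (-0.32 to 0.09), Nr1h3 (-0.07 to 0.06), Mylip (-0.11 to 0.15), Scarb1 (-0.23 to 0.01), Npc1 (-0.09 to 0.01) and Stard4 (-0.44 to 0.07). With probesets on the gene's own chromosome alone, 36 members were measured and the same 4 genes had an unadjusted p under 0.05.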
